A study of Mus musculus with 16 samples.

Results

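The 8 genes described here, Vegfa, Hif1a, Pim1, Pim3, Notch1, Dll4, Cdk6 and E2f1, encode messenger RNAs that have been reported elsewhere as targets of ZFP36-family proteins. They were listed by symbol, and each matched 1 of the 35275 Ensembl gene IDs in the table. Liver RNA was sequenced in 16 libraries, in 4 groups of 4. Wild-type mice (WT) and mice with a liver-specific knockout of Zfp36l1 (LKO) were compared, each on a control diet or on a diet containing ethanol. The driver of the deletion, the strain, age and sex of the mice, the make-up of the diets and the time on them were not given in the sources used here. Nothing states whether each library came from a separate animal, so the p-values measure the spread between these libraries, which may be partly technical.

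ZFP36, ZFP36L1 and ZFP36L2 are zinc finger proteins that bind AU-rich stretches in the 3′ untranslated region (3′ UTR) of messenger RNAs. They recruit the enzymes that shorten the poly(A) tail, and the bound transcript is degraded faster. HIF-1α is the oxygen-regulated subunit of the transcription factor HIF-1, and Vegfa, an endothelial growth factor, is among its classic targets. PIM1 and PIM3 are serine/threonine kinases whose activity is set largely by how much protein is made. DLL4 is a membrane-bound ligand and NOTCH1 a receptor of the Notch pathway, both prominent in endothelial cells. CDK6 phosphorylates the retinoblastoma protein, and E2F1 is a transcription factor held back by that protein until the cell enters S phase.

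The preferred binding site of the family is the 7-base sequence UAUUUAU, written TATTTAT in the genome. It was searched on the transcript strand only, in the longest annotated 3′ UTR of each gene (GENCODE M21, build GRCm38), counting overlapping copies. For each gene the stretch with the most copies is shown, or the first where several had equally many. Capitals mark the copies of TATTTAT, and overlapping copies run together.
Vegfa: aatttcaacTATTTATgagatgtat
Hif1a: gcaccttttTATTTATTTATttttggtga
Pim1: taatgTATTTATTTATTTATTTATttggt
Pim3: acggtctctTATTTATggtgtgatc
Notch1: tttttttagTATTTATTTATgtactttta
Dll4: tataatgtgTATTTATaatatgaaa
Cdk6: catgtatatTATTTATtgctaagcc
E2f1: tggagcgttTATTTATTTATcgaggcctc

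In the order shown, these stretches lie at chr17:46017597-46017621 on the minus strand, chr12:73946007-73946035 on the plus strand, chr17:29495691-29495719 on the plus strand and chr15:88865223-88865247 on the plus strand. The remaining 4 lie at chr2:26459358-26459386 on the minus strand, chr2:119335620-119335644 on the plus strand, chr5:3528498-3528522 on the plus strand and chr2:154560031-154560059 on the minus strand. All are within annotated 3′ UTRs.

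All 8 genes held at least 1 TATTTAT, against 29.1% of the 10523 protein-coding genes that passed the expression filter described below and had an annotated 3′ UTR. Pim1 and Notch1 had 4 copies each, and in Pim1 all 4 overlap in the single run shown above. Vegfa, Hif1a and E2f1 had 3 copies, Pim3 and Cdk6 had 2, and Dll4 had 1. Among all 10523 genes, 3.6% had 3 copies or more. The 9-base form TTATTTATT, which contains TATTTAT, was present in 6 of the 8 and in 7.7% of all genes, and it was not found in Pim3 or Dll4. The shorter ATTTA, which lies inside both, was present in all 8 and in 68.6% of all genes. A match is a description of the letters and not of binding. The 8 genes were listed as reported targets of a family that binds such stretches, so these counts are no independent link to ZFP36L1. Their UTRs were 964 to 10217 bases long, beside a median of 1112 bases for all these genes, and the part of UTR length was not tested.

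**Figure D1:**
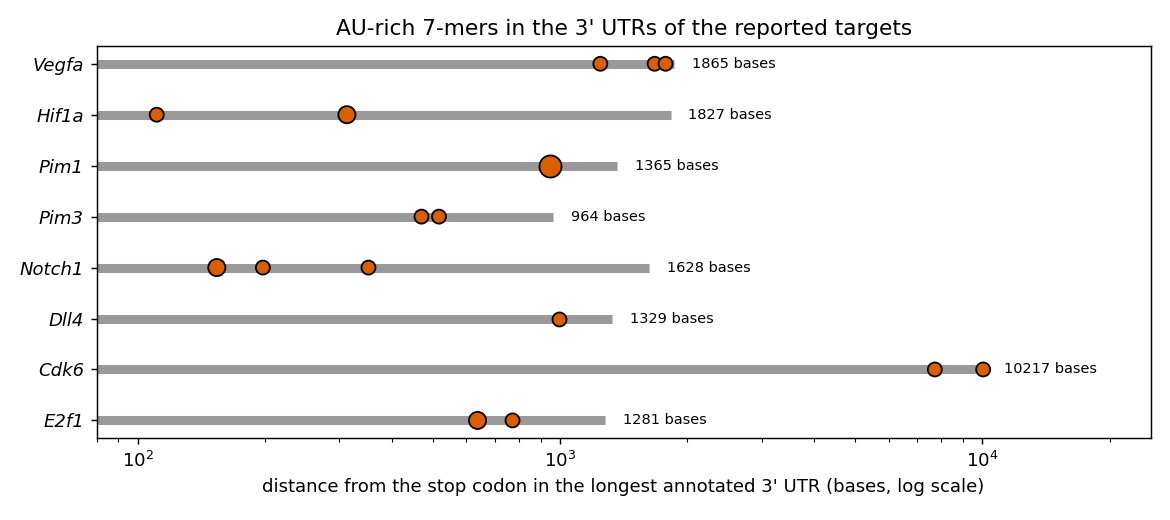
Positions of TATTTAT along the longest annotated 3′ UTR of each gene, as the distance in bases from the stop codon on a log axis. Each point is a stretch of 1 or more overlapping copies, its size grows with the number of copies, and grey bars end at the UTR length, from 964 bases in Pim3 to 10217 in Cdk6.

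The position of the motif differed among the genes. In Hif1a and Notch1 every copy began within the first 352 bases of the UTR, whereas in Vegfa all copies began at base 1246 or later of 1865. The Cdk6 UTR is by far the longest of the 8, and its copies begin at bases 7716 and 10043 of 10217. The gene length behind the deposited Cdk6 values, 3735 bases, is shorter than that UTR, so the Cdk6 level cannot have been scaled to the full transcript that holds both copies.

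The deposited values are FPKM, fragments per kilobase of gene relative to library size, and levels below are on that scale. The read totals behind the FPKM values, recovered from their steps, ranged from 19069903 to 24768569 in 15 libraries and were 9890475 in WT ethanol library 2. These totals match the sums of reads counted to genes, so the sequencing depth itself is not known from them. That library also carried 22.5% of its reads on mitochondrial transcripts, against 3.64% to 6.97% in the others, and its Spearman correlation with any other library, across genes, was at most 0.721, against at least 0.858 among the others. Results that rest on it are therefore given with and without it. Within the groups, the first principal component (40% of the variance, over the libraries other than WT ethanol library 2) set libraries 1 and 2 of every group against libraries 3 and 4. The labels name no batch for this split, and differences of the 8 genes are given within each side wherever their signs differ and for some that differ in size. In the other comparisons the sides had the same sign, but not always a like size. Libraries 1 and 2 include WT ethanol library 2. The labelled tissue was checked by 6 hepatocyte markers, including albumin and transthyretin, whose summed level was 41830 to 72380 FPKM in every library.

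Zfp36l1 itself was 9.79, 9.30, 25.5 and 14.8 FPKM in the WT control libraries and 1.03, 0.836, 1.42 and 1.40 in the LKO control libraries. With ethanol it was 9.87, 13.2, 21.0 and 23.4 in WT, against 0.688, 0.572, 1.60 and 1.76 in LKO. Every LKO library was below every WT library on both diets. The log2 difference was -2.77 (SE 0.321, adjusted p = 0.00148, limma) for the control diet. With ethanol it was -3.02 (SE 0.321, adjusted p = 0.000428).

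None of the 8 genes was higher or lower in LKO than in WT by the test, on either diet. The test was limma on log2(FPKM + 1), a scale that understates the change of low genes, over 11298 genes with at least 1 FPKM in at least 4 of the 16 libraries. A gene was called at a Benjamini-Hochberg adjusted p under 0.05, and all 8 genes passed the filter. Dll4 did so with 4 libraries and E2f1 with 5, among them WT ethanol libraries 2, 3 and 4. E2f1 thus entered the test through the group in which it is high, so its differences with that group are not independent of the filter. On the control diet 0 of the 8 were called, beside 0.00885% of all genes, which is Zfp36l1 alone. With ethanol 0 of the 8 were called, beside 0.0797% of all genes. By unadjusted p under 0.05, 0 of the 8 passed on the control diet, against 3.45% of all genes, and 1 of the 8, E2f1, passed on the ethanol diet, against 11.9%. With voom on the recovered reads the count was also 0 on both diets. A fit that weights libraries by their quality called 1 of the 8 (Notch1) on the control diet and 2 (Notch1 and E2f1) on the ethanol diet, where it called 260 and 3465 genes in all.

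The directions were mixed. On the control diet 5 of the 8 (Hif1a, Pim1, Pim3, Dll4 and E2f1) had a log2 difference above 0, with a median over the 8 of 0.03, while 32.8% of all genes were above 0 and their median was -0.10. Under a scaling to equal sums Hif1a moved to just below 0. With ethanol 3 of the 8 (Vegfa, Hif1a and Dll4) were above 0, with a median of -0.11, beside 46.5% of all genes and a median of -0.03. The median of all genes on the control diet moved to 0.00 under quantile normalization, so differences of about 0.1 depend on the scaling there. Leaving out WT ethanol library 2 moved the ethanol diet median of all genes to -0.23 and that of the 8 genes to -0.40, and only Hif1a was then above 0.

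**Figure D2:**
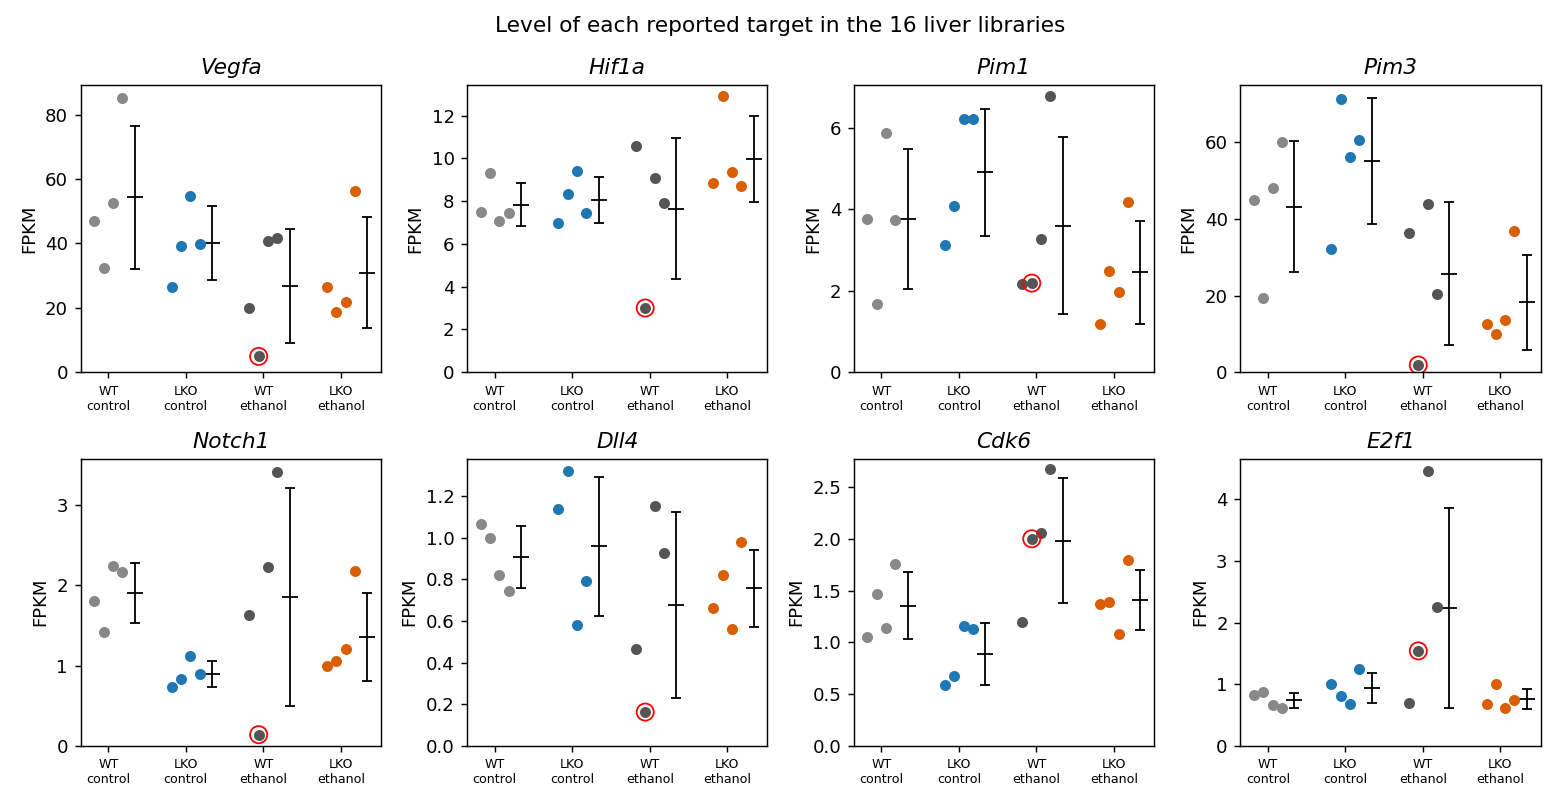
FPKM of each gene in the 16 libraries, by group, with libraries 1 to 4 from left to right. Points are libraries, bars are mean ± SD of the 4, and the red circle marks WT ethanol library 2, which is the lowest of all 16 for Vegfa, Hif1a, Pim3, Notch1 and Dll4 but not for Pim1, Cdk6 or E2f1.

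The levels spread over a wide range. Averaged over 16 libraries, Vegfa was at 38.0 and Pim3 at 35.5 FPKM, above 87.4% and 86.7% of the genes kept. Hif1a averaged 8.37 and Pim1 3.68 FPKM. Notch1 (1.503), Cdk6 (1.41), E2f1 (1.17) and Dll4 (0.824) were near the bottom of the genes kept, and Dll4 was above only 2.0% of them. Vegfa and Pim3 were close in order, with Vegfa higher in 10 of 16 libraries, and Notch1 exceeded Cdk6 in 10 of 16. The order of E2f1 and Dll4 was equally loose, with E2f1 higher in 9 of 16. In contrast, Hif1a was above Pim1 and Pim1 above Notch1 in all 16 libraries. The lowest genes rested on few reads, 6 to 119 per library for Dll4 and 35 to 299 for E2f1, which limits the precision of their values.

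Vegfa, the ligand, was 46.9, 32.3, 52.7 and 85.3 FPKM in the WT control libraries and 26.4, 39.4, 54.8 and 39.7 in the LKO control libraries. The levels under ethanol were 19.98, 4.86, 40.8 and 41.6 in WT, against 26.6, 18.8, 21.8 and 56.3 in LKO. The highest value was in WT on the control diet, but the ranges of the genotypes overlapped on both diets. The log2 difference between LKO and WT was -0.39 (95% interval -1.50 to 0.72, adjusted p = 0.9997, limma) on the control diet. Under ethanol it was 0.43 (-0.69 to 1.54, adjusted p = 0.785), and without WT ethanol library 2 its sign turned, to -0.20. Within libraries 3 and 4 the ethanol diet difference was -0.22 and within libraries 1 and 2 it was 1.08.

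Hif1a had the smallest coefficients of variation of the 8 on the control diet, 13% in WT and 13.5% in LKO. Its levels were 7.504, 9.33, 7.05 and 7.46 FPKM in WT and 6.98, 8.35, 9.43 and 7.43 in LKO. The levels under ethanol were 10.6, 2.996, 9.10 and 7.93 in WT, against 8.85, 12.9, 9.35 and 8.72 in LKO. The genotypes overlapped on both diets, and the only low value was in WT ethanol library 2. Between LKO and WT its log2 difference was 0.03 (95% interval -0.56 to 0.62) without ethanol and 0.43 (-0.16 to 1.02, adjusted p = 0.566, limma) on the ethanol diet, where it was 0.10 without WT ethanol library 2. Within libraries 3 and 4 it was 0.19 without and 0.08 with ethanol, and within libraries 1 and 2 it was -0.12 and 0.79.

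None of the 7 tested genes of the VEGF ligands and receptors, and none of 21 in the HIF-1 pathway, differed between the genotypes by the test on either diet. Counts at an unadjusted p under 0.05 were 1 and 0 without ethanol and 0 and 3 with it, beside 3.45% and 11.9% of all genes, and voom called none. The smallest adjusted p of these lists on the control diet was that of Nrp2, a co-receptor for VEGF-family ligands and semaphorins. It was 4.91, 6.19, 4.47 and 4.23 FPKM in WT control and 1.95, 2.55, 2.91 and 1.95 in LKO control, without overlap, with a log2 difference of -0.83 (SE 0.213, adjusted p = 0.680, limma). A separation with LKO lower was seen in 7.64% of all genes. With libraries weighted by quality Nrp2 passed on the control diet, at -0.86 (adjusted p = 0.0120), and on the ethanol diet the ligand gene Vegfb (-1.04, adjusted p = 0.0212) and Pdk1 (0.85, adjusted p = 0.0344) did. Under ethanol Pdk1, a kinase that turns pyruvate away from the mitochondrion, was 7.94 ± 5.03 FPKM in WT and 17.7 ± 4.95 in LKO (SD, n = 4). Slc2a1, the glucose transporter GLUT1, was 7.26 ± 1.498 in WT and 3.59 ± 3.49 in LKO on that diet. In the fit without weights neither passed, with adjusted p-values of 0.293 and 0.300.

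Pim1 was 3.76, 1.67, 5.88 and 3.75 FPKM in WT control and 3.13, 4.07, 6.21 and 6.21 in LKO control. The levels under ethanol were 2.16, 2.19, 3.26 and 6.77 in WT, against 1.17, 2.48, 1.96 and 4.18 in LKO. The ranges overlapped, and the mean of LKO was the higher on the control diet and the lower on the ethanol diet. Pim1 thus had a log2 difference of 0.35 (95% interval -0.38 to 1.08) without ethanol and -0.38 (-1.11 to 0.35, adjusted p = 0.694, limma) on the ethanol diet.

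Pim3 was 45.1, 19.4, 48.2 and 60.1 FPKM in WT control and 32.3, 71.2, 56.2 and 60.6 in LKO control. In the ethanol groups it was 36.5, 1.84, 44.0 and 20.4 in WT, against 12.6, 9.99, 13.6 and 36.8 in LKO. In LKO on ethanol, libraries 1 to 3 lay between 9.99 and 13.6 FPKM and library 4 stood apart from them. The log2 difference between the genotypes was 0.40 (95% interval -1.01 to 1.81) on the control diet. Under ethanol it was -0.08 (-1.49 to 1.33, adjusted p = 0.978, limma), and -0.97 without WT ethanol library 2 (adjusted p = 0.277), so that library decides the size of this value. The sign was no firmer, at 0.364 without WT ethanol library 3, 0.275 without WT ethanol library 1 and 0.127 without LKO ethanol library 2. Libraries 3 and 4 gave 0.12 without and -0.41 with ethanol, and libraries 1 and 2 gave 0.68 and 0.25.

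Of 15 tested genes around the PIM kinases and JAK-STAT signalling, which induces them, 0 differed between the genotypes by the test on either diet. The count at an unadjusted p under 0.05 was 0 without ethanol and 1 with it, beside 3.45% and 11.9% of all genes, and voom called none. Pim2, the third kinase of the family, was 2.599 ± 0.569 FPKM in WT ethanol and 1.62 ± 0.266 in LKO ethanol (SD, n = 4), with a log2 difference of -0.45 (adjusted p = 0.453, limma). Bcl2l1, an inhibitor of apoptosis, was 22.0 ± 8.02 in WT and 13.2 ± 9.58 in LKO on that diet (adjusted p = 0.383).

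Notch1 was the only gene of the 8 whose genotype groups did not overlap on the control diet, and with ethanol there was none, beside 2.69% of all genes. It was 1.81, 1.42, 2.24 and 2.16 FPKM in WT control and 0.732, 0.833, 1.12 and 0.894 in LKO control, and the mean of LKO was 0.469 times that of WT. A separation of this kind, with LKO lower, was seen in 7.64% of all genes on the control diet (9.25% in either direction), so 1 gene in 8 is near the background. The log2 difference was -0.61 (95% interval -1.25 to 0.02, adjusted p = 0.9997, limma), and it was of similar size within libraries 3 and 4 (-0.68) and libraries 1 and 2 (-0.55). Over all settings tried it stayed between -1.09 and -0.48, the lowest with voom, which is on another scale.

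Under ethanol Notch1 was 1.63, 0.139, 2.23 and 3.42 FPKM in WT and 0.994, 1.054, 1.20 and 2.17 in LKO. The lowest value, in WT ethanol library 2, rests on 13 reads, and the other 3 WT libraries overlapped LKO only through LKO library 4. The log2 difference was -0.15 (95% interval -0.78 to 0.49, adjusted p = 0.885, limma) over all libraries. Without WT ethanol library 2 it was -0.53 (-0.96 to -0.11, adjusted p = 0.219), and without WT ethanol library 4 it turned to 0.12. Its sign also differed between libraries 3 and 4 (-0.515) and libraries 1 and 2 (0.23).

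Dll4 was 1.064, 0.996, 0.822 and 0.743 FPKM in WT control and 1.14, 1.32, 0.582 and 0.791 in LKO control. In the ethanol groups it was 0.466, 0.162, 1.15 and 0.924 in WT, against 0.660, 0.822, 0.559 and 0.981 in LKO. The genotypes overlapped throughout, and the lowest value, again in WT ethanol library 2, rests on 6 reads. For Dll4 the log2 difference was 0.03 (95% interval -0.38 to 0.43) without ethanol and 0.10 (-0.30 to 0.50, adjusted p = 0.871, limma) on the ethanol diet, and without WT ethanol library 2 the latter was -0.06. Within libraries 3 and 4 the values were -0.08 and -0.21, and within libraries 1 and 2 they were 0.13 and 0.41.

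In whole liver, fewer cells of a type and less RNA per cell cannot be told apart. This bears on transcripts prominent in endothelial cells, such as Dll4 and Notch1. The summed level of 8 endothelial markers was 52.7 to 85.5 FPKM in WT control, 43.6 to 103 in LKO control, 33.3 to 107 in WT ethanol and 51.5 to 108 in LKO ethanol. The lowest sum was in WT ethanol library 2, none of the 8 markers was at 0 in all libraries, and 0 of the 8 were called between genotypes. Their part in the Notch1 and Dll4 values was not tested.

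The rest of the Notch pathway did not differ between the genotypes by the test, with 0 of 17 tested genes called on either diet, 0 at an unadjusted p under 0.05 and 0 by voom. On the control diet 12 of the 17 were below 0, with a median of -0.11, close to the median of all genes. Among them Adam17, a protease able to shed membrane proteins including Notch receptors, was 5.41 ± 0.908 FPKM without ethanol in WT and 3.87 ± 0.421 in LKO (SD, n = 4, log2 difference -0.39, adjusted p = 0.9997, limma). Notch2 was 3.72 ± 0.993 in WT and 2.76 ± 1.19 in LKO, and Rbpj, the DNA-binding partner of the cleaved receptor, was 2.32 ± 0.265 and 1.82 ± 0.701.

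Cdk6 was 1.053, 1.47, 1.14 and 1.76 FPKM in WT control and 0.588, 0.679, 1.16 and 1.13 in LKO control. In the ethanol groups it was 1.20, 2.003, 2.06 and 2.67 in WT, against 1.38, 1.40, 1.08 and 1.79 in LKO. The mean of LKO was the lower on both diets, by a ratio of 0.655 and 0.712, but the ranges overlapped. As log2 differences these were -0.32 (95% interval -0.72 to 0.07, adjusted p = 0.9997, limma) without ethanol and -0.29 (-0.68 to 0.10, adjusted p = 0.563) on the ethanol diet. Under every setting tried it was below 0 on both diets, from -0.64 to -0.18, the lowest with voom, which is on another scale. Of all genes, 32.8% were above 0 on the control diet. On the ethanol diet without WT ethanol library 2, Cdk6 was at -0.28 and the median of all genes at -0.23. On the ethanol diet libraries 3 and 4 gave -0.47 and libraries 1 and 2 gave -0.11.

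E2f1 was 0.819, 0.867, 0.655 and 0.610 FPKM in WT control and 1.005, 0.815, 0.687 and 1.24 in LKO control. In the ethanol groups it was 0.690, 1.54, 4.47 and 2.26 in WT, against 0.678, 0.998, 0.614 and 0.747 in LKO. Libraries 2, 3 and 4 of the WT ethanol group were above every library of the other 3 groups, while library 1 was not. The log2 difference between LKO and WT was 0.15 (95% interval -0.38 to 0.69) on the control diet and -0.75 (-1.29 to -0.22, adjusted p = 0.286, limma) on the ethanol diet.

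The E2f1 value on the ethanol diet depended on single libraries. Without WT ethanol library 1 it was -1.02 and passed the test (adjusted p = 0.0227), and with libraries weighted by quality it was -1.47 (adjusted p = 0.000455). That weighting rests largely on WT ethanol library 3, with weights of 0.278, 0.0418, 4.998 and 1.06 for the 4 libraries of the group. The difference shrank to -0.46 and did not pass without library 3, the highest of the group. Within libraries 3 and 4 the difference was -1.33, and within libraries 1 and 2 it was -0.18. The change of the genotype difference with diet (the interaction) was -0.91 for E2f1 (95% interval -1.66 to -0.15, adjusted p = 0.927, limma). For the interaction 0 of the 8 genes and 0% of all genes were called. At an unadjusted p under 0.05 there were 1 of the 8 (E2f1) and 3.20% of all genes, and voom called none of either.

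**Figure D3:**
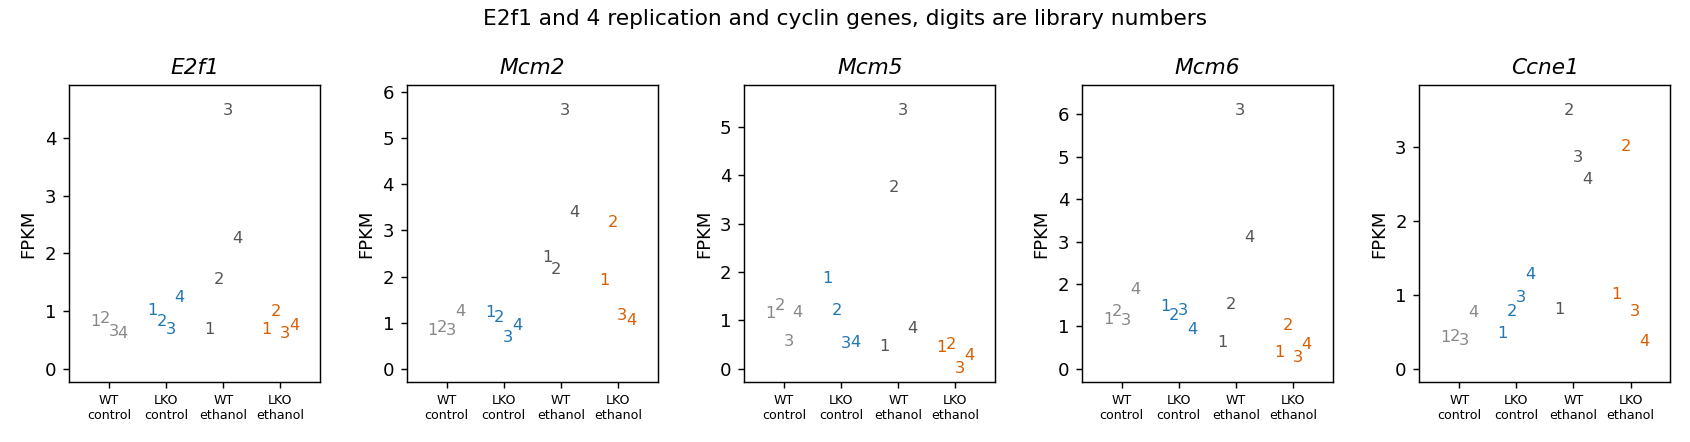
FPKM of E2f1, of the replication helicase subunits Mcm2, Mcm5 and Mcm6, and of cyclin E1 (Ccne1), by group. Each digit is a library number, and WT ethanol library 3 is the highest of the 16 for E2f1, Mcm2, Mcm5 and Mcm6.

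Around CDK4/6, the retinoblastoma protein and E2F, 25 genes were tested and 0 were called between the genotypes on either diet, with 1 (without ethanol) and 6 (with ethanol) at an unadjusted p under 0.05 and none by voom. Of all genes, 3.45% and 11.9% reached that p. The list's median on the ethanol diet was -0.21, beside -0.03 for all genes, and without WT ethanol library 2 these were -0.38 and -0.23. Its smallest adjusted p was that of Tfdp2, which encodes a dimerization partner of E2F proteins. Tfdp2 was 2.67, 2.79, 4.33 and 3.79 FPKM in WT ethanol and 1.96, 1.77, 1.55 and 1.55 in LKO ethanol, with no overlap, and its log2 difference was -0.68 (SE 0.177, adjusted p = 0.184, limma). Without WT ethanol library 1 it passed the test, at -0.77 (adjusted p = 0.0368), as it did without library 2 and with a term for the split of libraries (-0.72, adjusted p = 0.0320). With libraries weighted by quality it passed on the ethanol diet (-0.94, adjusted p = 0.000604) and on the control diet (-0.46, adjusted p = 0.0487). The weighted fit called 3465 genes in all on the ethanol diet and 260 on the control diet. Mcm5 was 0.466, 3.75, 5.33 and 0.836 FPKM in WT ethanol and 0.450, 0.499, 0.0130 and 0.283 in LKO ethanol (log2 difference -1.21, adjusted p = 0.252). Mcm6 was 0.625, 1.51, 6.08 and 3.09 FPKM in WT ethanol and 0.386, 1.01, 0.266 and 0.584 in LKO ethanol (log2 difference -1.10, adjusted p = 0.228). As with E2f1, library 1 was the lowest of the WT ethanol group for both.

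A further 32 genes reported as targets of the family were listed for comparison, of which 23 were tested and 0 called between the genotypes on either diet. At an unadjusted p under 0.05 there were 0 without ethanol and 3 with it, beside 3.45% and 11.9% of all genes, and voom called none. The median was -0.06 without and 0.06 with ethanol, beside -0.10 and -0.03 for all genes. Its sign on the ethanol diet turned without WT ethanol library 2, to -0.30, beside -0.23 for all genes. Under ethanol Plaur, the urokinase receptor, was 3.99 ± 1.83 FPKM in WT and 2.02 ± 2.69 in LKO (SD, n = 4). It did not pass the test, with an adjusted p of 0.316 (limma). It did with libraries weighted by quality (-1.06, adjusted p = 0.00594) and without LKO ethanol library 2 (-1.52, adjusted p = 0.00650), in fits that called 3465 and 42 genes in all. Plaur passed the expression filter through the ethanol groups alone, since it was below 1 FPKM in every control diet library.

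**Figure D4:**
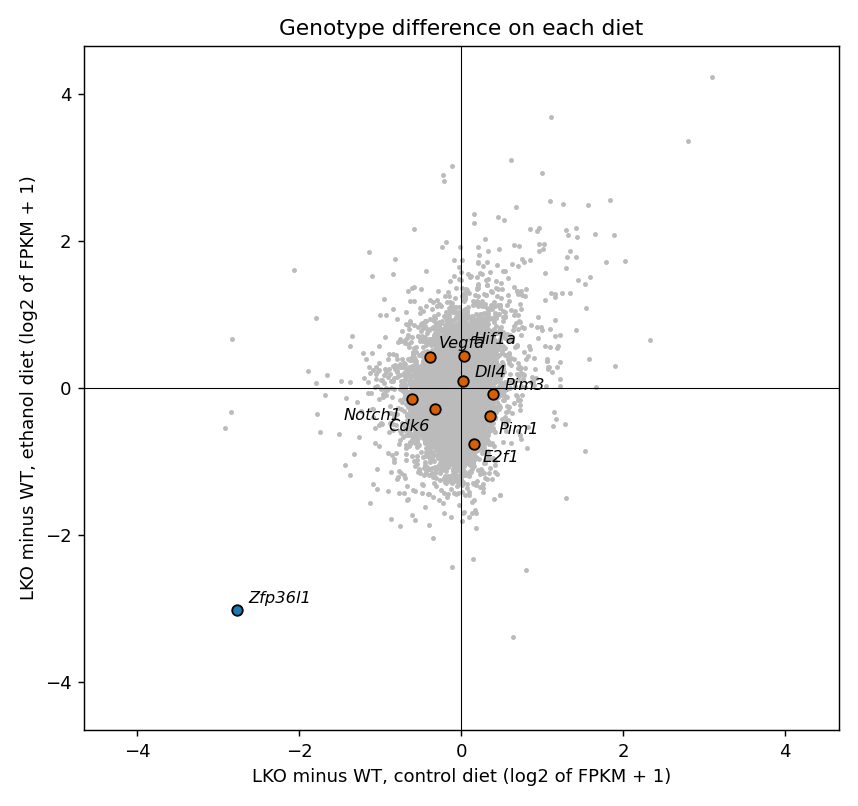
Log2 difference of LKO minus WT on the control diet (x axis) and on the ethanol diet (y axis) for the 11298 genes tested (grey), the 8 reported targets (orange) and Zfp36l1 (blue). The 8 lie inside the cloud of all genes, between -0.61 and 0.40 on the control diet and between -0.75 and 0.43 on the ethanol diet, while Zfp36l1 lies outside it at -2.77 and -3.02.

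The ethanol comparisons share their libraries with the genotype comparisons and with the interaction, so they are given as values of their own. In WT, 0 of the 8 genes were called between ethanol and control diet, beside 4.18% of all genes, with 2 of the 8 (Vegfa and E2f1) and 19.7% of all genes at an unadjusted p under 0.05. In LKO, 0 of the 8 were called, beside 0.425% of all genes, with 2 (Pim1 and Pim3) and 9.19% at an unadjusted p under 0.05. Voom called none of the 8 in either genotype. No gene of the 8 had groups without overlap, which was seen in 10.1% of all genes in WT and in 12.3% in LKO.

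**Figure D5:**
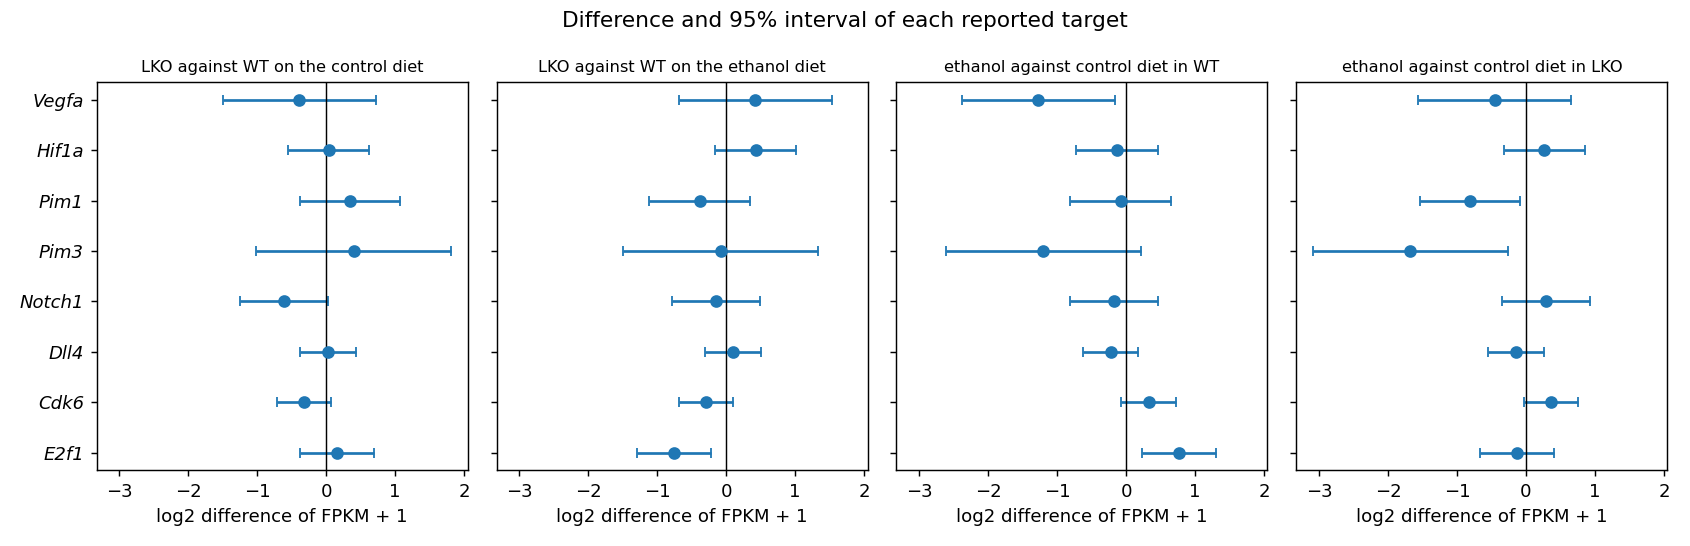
Log2 difference of FPKM + 1 for each gene in 4 comparisons, with 95% intervals from limma. On the control diet every interval for LKO against WT holds 0, and on the ethanol diet every interval but that of E2f1 does, before adjustment over all genes.

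Vegfa had a lower mean on ethanol in both genotypes, 26.8 ± 17.7 against 54.3 ± 22.4 FPKM in WT and 30.9 ± 17.3 against 40.1 ± 11.6 in LKO (SD, n = 4). In WT the log2 difference was -1.27 (95% interval -2.38 to -0.16, adjusted p = 0.191, limma), and it was -0.64 without WT ethanol library 2. It was -0.69 within libraries 3 and 4 and -1.85 within libraries 1 and 2. Pim3 also had lower means on ethanol, 25.7 ± 18.7 against 43.2 ± 17.2 in WT and 18.2 ± 12.5 against 55.1 ± 16.5 in LKO. Its log2 difference in WT was -1.20 and rested on WT ethanol library 2, without which it was -0.31. Libraries 3 and 4 gave -0.82 in WT and libraries 1 and 2 gave -1.57. In LKO its log2 difference was -1.67 (-3.08 to -0.26, adjusted p = 0.418), and libraries 1 to 3 on ethanol were below every LKO control library.

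The Pim3 response in LKO passed the test once WT ethanol library 2 was left out, at the same log2 difference of -1.67 and an adjusted p of 0.0337 (limma). Only the SE and the number of genes called in all changed, from 0.668 to 0.404 and from 48 to 409. The difference was -1.34 within libraries 3 and 4 and -2.004 within libraries 1 and 2. Pim1 in LKO was 2.45 ± 1.27 FPKM on ethanol against 4.90 ± 1.55 on the control diet (SD, n = 4), with a log2 difference of -0.81 (adjusted p = 0.472, and 0.198 without WT ethanol library 2). In WT the Pim1 means were 3.596 ± 2.18 and 3.76 ± 1.72, with log2 differences of 0.01 within libraries 3 and 4 and -0.17 within libraries 1 and 2.

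E2f1 and Cdk6 had higher means on ethanol in WT. E2f1 was 2.24 ± 1.62 against 0.738 ± 0.125 FPKM (SD, n = 4), with a log2 difference of 0.77 (95% interval 0.24 to 1.31, adjusted p = 0.0968, limma). It passed the test without WT ethanol library 1, at 1.04 (adjusted p = 0.00983), and within libraries 1 and 2 the difference was 0.17 against 1.37 within libraries 3 and 4. It shrank to 0.475 and did not pass without WT ethanol library 3. In LKO the E2f1 difference was -0.14 (adjusted p = 0.985). Cdk6 was 1.98 ± 0.606 against 1.36 ± 0.323 FPKM in WT and 1.41 ± 0.291 against 0.888 ± 0.297 in LKO, with log2 differences of 0.33 and 0.36 (adjusted p = 0.353 and 0.618).

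Hif1a, Notch1 and Dll4 showed small ethanol differences. In WT the log2 differences were -0.13, -0.18 and -0.22, and in LKO they were 0.27, 0.29 and -0.15, with adjusted p-values from 0.557 to 0.947 (limma). Leaving out WT ethanol library 2 turned the WT values of Hif1a and Notch1 to 0.21 and 0.21, and that of Dll4 became -0.06. Within libraries 3 and 4 the WT values of the 3 genes were 0.20, 0.24 and 0.19, and within libraries 1 and 2 they were -0.46, -0.59 and -0.64. Dll4 in LKO was 0.06 on the first side and -0.36 on the other. Over the 8 genes, 2 were above 0 for ethanol in WT with all libraries and 5 without WT ethanol library 2, with medians of -0.15 and 0.13.

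Genes of the surrounding pathways did pass the test for ethanol in WT, where 4.18% of all genes were called. Of the 23 further reported targets, 3 rose and 1 fell, and 3 of these are described. Cdkn1a, the CDK inhibitor p21, rose from 8.18 ± 10.9 to 56.3 ± 16.1 FPKM (SD, n = 4, log2 difference 3.24, adjusted p = 0.0107, limma). Its WT control mean rests on library 3, at 24.5 FPKM against 1.71 to 4.09 in the other 3, and without that library the log2 difference was 3.95 (adjusted p = 0.00174). Plaur rose from 0.337 ± 0.0520 to 3.99 ± 1.83 FPKM (log2 difference 1.84, adjusted p = 0.0124), a rise not independent of the filter, which it passed through the ethanol groups alone. Cyp7a1, the rate-limiting enzyme of bile acid synthesis, fell from 86.0 ± 39.7 to 10.2 ± 7.91 FPKM (log2 difference -3.19, adjusted p = 0.0139), and its call was lost in 1 of the 16 fits with 1 library left out.

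In the HIF-1 pathway 1 of 21 tested genes rose and 1 fell in WT on ethanol, beside 4.18% of all genes called. Hmox1, which encodes the haem-degrading enzyme haem oxygenase 1, was 8.59, 11.1, 11.7 and 9.77 FPKM on the control diet and 47.9, 32.0, 32.4 and 37.6 on ethanol, with no overlap. Its log2 difference was 1.76 (adjusted p = 0.0213, limma), and the call was lost in 4 of 16 fits that leave out 1 library. Pdk1 fell from 33.3 ± 14.2 to 7.94 ± 5.03 FPKM (SD, n = 4, log2 difference -2.08, adjusted p = 0.0135), a call lost in 1 of these fits.

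Around CDK4/6 and E2F, 3 of 25 genes rose in WT on ethanol, Cdkn1a, Mcm2 and Ccne1, and none fell, beside 4.18% of all genes called. Mcm2 was 0.840, 0.895, 0.828 and 1.24 FPKM on the control diet and 2.42, 2.16, 5.60 and 3.38 on ethanol, with no overlap (log2 difference 1.11, adjusted p = 0.0193, limma), and its call was lost in 2 of 16 such fits. Ccne1 rose from 0.504 ± 0.177 to 2.43 ± 1.15 FPKM (SD, n = 4, adjusted p = 0.0476), a call lost in 13 of 16 fits that leave out 1 library. Among 15 genes around PIM and JAK-STAT signalling only Eif4ebp1, a repressor of translation initiation, passed (log2 difference 1.27, adjusted p = 0.0489), a call lost in 12 of 16 such fits. Of the VEGF list 0 of 7 and of the Notch list 0 of 17 passed, and none by voom. At an unadjusted p under 0.05 there were 2 and 1, beside 19.7% of all genes.

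These counts depended on WT ethanol library 2. Without it, 7 of the 21 HIF-1 pathway genes rose in WT on ethanol and Pdk1 fell. The 7 were Hmox1, the oxygen-sensing hydroxylases Egln1 and Egln3, the collagen hydroxylase subunit P4ha2, the disulfide oxidase Ero1l, the glycolytic enzyme Aldoa and the peptide hormone Adm. Their log2 differences were 1.82, 0.72, 0.88, 0.83, 0.70, 1.26 and 0.75, beside a median of all genes of 0.17 in the same fit, in which 9.48% of all genes were called (limma). Of the further reported targets 6 of 23 then rose, with Ier3, Egr1 and Myc in addition, at 1.77, 2.10 and 1.53, and Cyp7a1 fell. In that fit Nrarp, a feedback inhibitor of Notch signalling, rose by 0.78, Nrp1, a VEGF co-receptor, fell by 0.88, and E2f3 rose by 0.77, while Ccne1 no longer passed.

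In LKO fewer pathway genes passed the test for ethanol, where 0.425% of all genes were called. Cdkn1a rose from 2.01 ± 1.16 to 31.6 ± 20.5 FPKM (SD, n = 4, log2 difference 3.19, adjusted p = 0.0330, limma) and Hmox1 from 10.5 ± 2.597 to 60.1 ± 38.4 FPKM (log2 difference 2.15, adjusted p = 0.0283). With 1 library left out, these calls failed in 8 and 7 of 16 fits. No other gene of the 6 pathway lists passed. Without WT ethanol library 2, Egr1, Ero1l, E2f3 and Tfdp1 also passed in LKO, with log2 differences of 2.06, 0.89, 0.66 and 0.68, in a fit that called 3.62% of all genes. Both genotypes were fitted with 1 shared spread, and whether the responses differ between the genotypes is given by the interaction, in which no gene of these lists was called.

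Markers of other liver cells were read beside these values. On ethanol in WT 1 of 6 Kupffer and macrophage markers, Marco, and 1 of 6 stellate cell markers, Des, rose, beside 4.18% of all genes called. Their log2 differences were 1.71 and 0.94 (adjusted p = 0.0379 and 0.0296, limma). These calls were lost in 9 and 5 of the 16 fits with 1 library left out. In the fit without WT ethanol library 2, in which more pathway genes passed, Marco, Des, the macrophage marker Cd68 and the endothelial markers Cdh5 and Lyve1 rose in WT, by 1.91, 0.75, 1.47, 0.855 and 2.58, and Lyve1 rose in LKO by 1.75. In WT these were 2 of 8 endothelial, 2 of 6 Kupffer and macrophage and 1 of 6 stellate markers, with list medians of 0.23, 0.38 and 0.75 beside 0.17 for all genes. Other members lay below 0 in the fit to all libraries, with Clec4g at -1.46, Stab2 at -0.53 and Vsig4 at -0.44, none of which passed. The summed level of the 6 Kupffer and macrophage markers was 68.7 to 176 FPKM in WT control and 80.5 to 234 in WT ethanol, and that of the 6 stellate markers was 38.2 to 126 and 16.3 to 164. No marker was called between genotypes in the fit to all libraries. On the ethanol diet the log2 differences between LKO and WT were -1.75 for Marco, -1.05 for Cd68, -0.73 for Des and -1.32 for Col1a1, with adjusted p-values from 0.172 to 0.397 (limma), beside the lower means of E2f1, Mcm5 and Mcm6 in LKO on that diet. Of the 6 Kupffer and macrophage and the 6 stellate markers 1 each was above 0, and of the 8 endothelial and 3 leukocyte markers 7 and 2 were, among them Clec4g at 0.77, S100a8 at 0.69 and S100a9 at 0.53. Leaving out WT ethanol library 2 moved the endothelial median from 0.16 to -0.18, the Kupffer and macrophage median from -0.55 to -0.77 and the stellate median from -0.57 to -0.72. In LKO ethanol the summed levels were 40.4 to 223 FPKM for the Kupffer and macrophage markers and 84.0 to 119 for the stellate markers. The 5 cholangiocyte markers summed to 74.98 FPKM in WT ethanol library 2. Their sums were 19.64 to 28.55 FPKM in WT control, 15.82 to 24.09 in LKO control and 10.75 to 21.91 in LKO ethanol. The part of these cells in the values of the 8 genes and of the pathway genes was not tested.

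Across the 16 libraries, the genes whose levels followed each of the 8 most closely were read as a description, since all levels of a library share its depth and composition. Dll4 was most like Kdr, the VEGF receptor 2 of endothelial cells, with a Spearman correlation of 0.915, followed by Mylip (0.865). Vegfa was most like Chd3 (0.962) and Tomm40l (0.953), and Notch1 most like Zfp516 (0.947) and Hmbox1 (0.944). The closest to Pim3 were Tfr2 (0.912), the hepatic transferrin receptor 2, and Clcn2 (0.897), and to Pim1 Asb2 (0.865) and Acat3 (0.859). Cdk6 was most like Nprl3 (0.909) and Pxdn (0.885), Hif1a most like Lysmd3 (0.888) and Larp4 (0.874), and E2f1 most like Cdk5rap3 (0.853) and Nosip (0.838). Without WT ethanol library 2 these values lay between 0.814 and 0.954.

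Among the 8 themselves, the closest pairs over the 16 libraries were Vegfa with Pim3 (Spearman 0.691), Vegfa with Pim1 (0.671) and Pim1 with Pim3 (0.665). Vegfa and Notch1 followed at 0.618. This order rests on WT ethanol library 2, since over the other 15 libraries the closest pair was Notch1 with Cdk6 (0.661, against 0.45 over 16), the 3 pairs above were at 0.625, 0.657 and 0.65, and Dll4 with E2f1 was at 0.618. Hif1a was low with each of the others, from -0.33 with Pim1 to 0.14 with Notch1, and its value with Vegfa was -0.19. Over the 15 libraries it was at -0.44 with Vegfa, -0.45 with Pim1 and -0.47 with Pim3. Notch1 and its ligand Dll4 were at 0.17 over 16 libraries and -0.01 over the 15 without WT ethanol library 2.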

How the data were processed

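The authors deposited 1 table of FPKM values for 35275 Ensembl gene IDs and 16 libraries, made with fastp, STAR 2.6.1, HTSeq and DESeq2 on build mm10, per the submitters' processing notes, which give no order or role. Strandedness of counting is not given in the sources used here, so overlapping genes may share reads. Symbols and 3′ UTRs came from GENCODE M21 on GRCm38 (mm10), and 34490 IDs matched. The deposited FPKM of a gene moves in steps of 1 read. Within 0.1 read, whole numbers were found for 100% of 20520 genes detected in 4 or more libraries. This gave the reads of each gene and the total counted to genes in each library. The recovered gene length equalled the longest GENCODE transcript for 68.5% of genes above 0. No libraries were identical.

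The 11298 genes reaching 1 FPKM in 4 or more libraries were tested as log2(FPKM + 1) in a group-means model over all 16 libraries with limma 3.58.1 (eBayes with trend, R 4.3.3), two-sided, with Benjamini-Hochberg adjustment over all genes kept. The same procedure was run on simulated data that held no outlying library and no split of libraries, so that run does not describe its behaviour on these libraries. The 8 genes, the 6 pathway lists and the 6 marker lists were chosen with earlier results of these data known. From each list at most the 3 genes with the smallest adjusted p per comparison were named, with the 2 protein-coding genes most correlated with each of the 8. The values of 1 further reported target are not reported here. The genes named from the fit without WT ethanol library 2 were chosen after their values were seen. Alternatives were a pseudocount of 0.1, no filter, quantile normalization, equal sums, voom on recovered reads, array weights, a term for the split of libraries, each diet alone, and each library left out.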

Additional observations from a re-analysis of the deposited data

Results flagged for a closer look

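Of 36 groups of 4 libraries examined for a library far from the others (the 8 genes and Zfp36l1 in 4 groups), 2 had such a library by Dixon's criterion, and chance gives about 1 in 20. Hif1a in LKO ethanol library 2 was 12.9 FPKM, while the other 3 libraries of the group were between 8.72 and 9.35. Pim3 in LKO ethanol library 4 was 36.8 FPKM, while the other 3 were between 9.99 and 13.6. That library is the only LKO ethanol library whose Pim3 level reaches the range of the LKO control group.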

How the results depend on the processing

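In the genotype comparisons, 242 of the 256 values with 1 library left out and 133 of the 144 under other settings kept direction and call. In the ethanol comparisons these were 249 of 256 and 115 of 128, and in the interaction 121 of 128 and 59 of 64. The cause of each change below was not tested. No paired analysis was run, because the labels give no replicate numbers shared between groups. The sample titles carry running numbers, some of them consecutive between a control and an ethanol library of the same genotype. Nothing states whether such neighbours share a litter or batch, and a pairing by these numbers was not tested. The number of the 8 genes that hold each AU-rich motif was the same with all annotated UTR bases.

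The count of genes called for LKO against WT on the control diet (1) was 2 with quantile normalization, 260 with array weights, 13 with only the 8 libraries of that diet, 9 without WT ethanol library 2 and with a term for the split of libraries (chosen after seeing the data), and 1 to 5 with 1 library left out. It was 5 without WT ethanol library 2 and 2 without LKO ethanol library 4. On the ethanol diet (9) it was 5 without the filter, 5 with voom, 3465 with array weights, 3 with only the libraries of that diet, 178 with the added setting, and 1 to 387 with 1 library left out. The libraries that moved it by over 1.5 times were WT ethanol 1 (387), 2 (25) and 4 (4) and LKO ethanol 1 (1), 2 (42) and 3 (4). For ethanol in WT (472) it was 932 with quantile normalization, 253 with equal sums, 4334 with array weights, 776 with the term for the split, 2229 with the added setting, and 146 to 1071 with 1 library left out, with WT control 1 (156), 2 (146) and 4 (151) and WT ethanol 1 (940), 2 (1071) and 4 (245) beyond 1.5 times. For ethanol in LKO (48) it was 24 without the filter, 105 with quantile normalization, 25 with equal sums, 869 with array weights, 95 with the term for the split, 1206 with the added setting, and 6 to 409 with 1 library left out. Beyond 1.5 times were WT control 1 (23), the LKO control libraries 1 to 4 (14, 10, 19 and 11), WT ethanol 2 (409) and LKO ethanol 2 (8), 3 (6) and 4 (88). For the interaction (0) it was 506 with array weights and 0 to 6 with 1 library left out, 6 without WT ethanol library 1.

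Of the 8 genes, array weights called 1 on the control diet, 2 on the ethanol diet, 2 for ethanol in WT (E2f1 and Cdk6), 1 for ethanol in LKO (Pim3) and 1 in the interaction (E2f1). Quantile normalization called 1 for ethanol in WT (E2f1), and the added setting called 1 there (E2f1) and 2 in LKO (Pim3 and Pim1). With 1 library left out the count was 0 to 1 on the ethanol diet and for ethanol in WT (E2f1 without WT ethanol library 1) and 0 to 1 for ethanol in LKO (Pim3 without WT ethanol library 2).

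Directions turned as follows. On the control diet Hif1a was -0.007 with equal sums and -0.037 to 0.111 with 1 library left out, and Dll4 -0.061 to 0.123. On the ethanol diet Vegfa was -0.383 with array weights, -0.084 with the added setting and -0.202 to 0.751 with 1 library left out. Pim3 was 0.002 with a pseudocount of 0.1, 0.028 with voom and -0.965 to 0.364 with 1 library left out. Notch1 was 0.036 with a pseudocount of 0.1 and -0.534 to 0.118 with 1 library left out. Dll4 was -0.259 with array weights, -0.074 with the added setting and -0.062 to 0.235 with 1 library left out. For ethanol in WT, array weights gave Hif1a 0.152, Pim1 0.109, Notch1 0.244 and Dll4 0.103, and the added setting gave Hif1a 0.228 and Notch1 0.159. With 1 library left out, Hif1a was -0.305 to 0.206, Pim1 -0.366 to 0.125 and Notch1 -0.439 to 0.213. For ethanol in LKO, Zfp36l1 was 0.121 with array weights and -0.181 to 0.09 with 1 library left out. In the interaction Dll4 was -0.077 with quantile normalization, -0.368 with array weights, -0.1 with the added setting and -0.088 to 0.209 with 1 library left out, and Cdk6 was -0.035 with quantile normalization and -0.107 to 0.14.

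Depth limits the low values: the fewest reads in a library were 6 for Dll4, 13 for Notch1, 35 for E2f1, 44 for Pim3 and 50 for Cdk6.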

Other observations

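The 10523 protein-coding genes that passed the expression filter and had an annotated 3′ UTR were also grouped by their number of TATTTAT copies, as a description that bears on no single gene of the 8. The 7462 genes with 0 copies had a median log2 difference between LKO and WT of -0.08 on the control diet, the 2002 genes with 1 copy -0.12, the 683 with 2 copies -0.17 and the 376 with 3 or more -0.18. On the ethanol diet the medians were -0.06, 0.04, 0.06 and 0.05, and without WT ethanol library 2 they were -0.26, -0.21, -0.16 and -0.16. The median of the genes with 0 copies was thus the highest of the 4 on the control diet and the lowest on the ethanol diet, with or without that library. The median UTR length rose with the number of copies, from 818 to 1837.5, 2550 and 3257 bases, and the part of UTR length in these medians was not tested.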
